A study of Homo sapiens with 2 samples.

Results

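The MTRNR2L genes are nuclear genes that resemble the mitochondrial 16S rRNA, and each is annotated with a small open reading frame for a humanin-like peptide. Members were chosen by symbol, MTRNR2L1 to MTRNR2L10. Of these 10 genes, 4 could be paired with an Ensembl identifier in the reference tables used here: MTRNR2L1, MTRNR2L3, MTRNR2L6 and MTRNR2L10, among 57736 listed genes in all. MTRNR2L2, MTRNR2L4, MTRNR2L5, MTRNR2L7, MTRNR2L8 and MTRNR2L9 are not analysed here, and every count below is over the 4 matched genes.

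The libraries were made from poly(A)+ RNA of HEK293T cells, a line of human embryonic kidney origin with the large T antigen of SV40. Wild-type cells were held, per the labels, at 43 °C for 20 min and then at 37 °C for 6 h. The authors' paper states a longer time at 43 °C. The labels gave 1 group of 2 libraries, with the cells of each replicate lysed separately. The values describe recovered cells only; untreated cells are not analysed here and no response to heat was measured.

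Humanin is a short secreted and cytoplasmic peptide read from within the mitochondrial 16S rRNA sequence, and it is known for protecting cells against apoptosis. It binds the pro-apoptotic proteins BAX, BID and BIM and the growth factor carrier IGFBP3, and it acts at the cell surface on formyl peptide receptors and on a receptor complex that contains IL6ST. The nuclear MTRNR2L genes arose from copies of mitochondrial DNA inserted into chromosomes, and the 16S rRNA itself carries a short poly(A) tail in mitochondria. A short read from one of these sequences can therefore fit several places in the genome.

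The open reading frames are shown first, because they are the part of each gene that defines the family. All 4 frames had 75 bases, with 24 codons before the stop codon, and all aligned to one stretch of the 16S rRNA, chrM:2633-2707 on the plus strand of GRCh37. Capitals mark bases that differ from that stretch, without gaps:
16S rRNA stretch: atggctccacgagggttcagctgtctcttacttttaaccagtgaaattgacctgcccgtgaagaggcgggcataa
MTRNR2L1 (chr17:22023388-22023462, plus strand): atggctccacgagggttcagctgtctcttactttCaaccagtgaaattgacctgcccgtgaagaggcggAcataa
MTRNR2L3 (chr20:55934021-55934095, minus strand): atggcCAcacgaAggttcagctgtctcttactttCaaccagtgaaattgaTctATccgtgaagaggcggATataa
MTRNR2L6 (chr7:142375063-142375137, plus strand): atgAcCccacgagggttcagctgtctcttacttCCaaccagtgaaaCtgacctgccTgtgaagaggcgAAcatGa
MTRNR2L10 (chrX:55208353-55208427, minus strand): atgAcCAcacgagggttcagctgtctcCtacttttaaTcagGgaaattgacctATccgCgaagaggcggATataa

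MTRNR2L1 lay closest to the 16S rRNA in the frame, with 2 differences. MTRNR2L3 and MTRNR2L6 had 9 differences each, and MTRNR2L10 had 11. Counted from 1 at the first base of the frame, with the 16S base first, G70A was carried by all 4 genes. T35C was carried by MTRNR2L1, MTRNR2L3 and MTRNR2L6, and T6C by MTRNR2L3, MTRNR2L6 and MTRNR2L10. MTRNR2L3 and MTRNR2L10 shared C7A, G54A, C55T and C71T, which neither of the others had. MTRNR2L6 alone ended in tga, through A74G, where the other frames ended in taa.

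Over the whole transcript MTRNR2L1 was again the closest to the 16S rRNA. Each gene has a single exon, annotated as protein-coding. MTRNR2L1 (ENSG00000256618; chr17:22022437-22023991, plus strand) has 1555 bases, of which the frame takes bases 952 to 1026, and its local alignment with the 16S rRNA had an identity of 88.6% and covered 99.2% of the rRNA. MTRNR2L6 (ENSG00000270672; chr7:142374104-142375550, plus strand) has 1447 bases, with an identity of 84.3% over 92.8% of the rRNA. MTRNR2L10 (ENSG00000256045; chrX:55207824-55208944, minus strand) has 1121 bases, with an identity of 82.2% over 71.8%. MTRNR2L3 (ENSG00000256222; chr20:55933496-55934878, minus strand) has 1383 bases, with an identity of 80.4% over 90.0%. Among pairs of members the identity ran from 80.7% for MTRNR2L1 and MTRNR2L3 to 87.7% for MTRNR2L3 and MTRNR2L10.

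The reads had 50 bases, so identical sequences of that length were counted as the stretches that a read cannot tell apart. Despite the high identity, most of each transcript was unique in GRCh37. Of its windows of 50 bases, 97.7% in MTRNR2L1, 97.4% in MTRNR2L3, 94.9% in MTRNR2L10 and 85.3% in MTRNR2L6 occurred nowhere else in the genome. Between the 4 matched members, 11 windows were shared by MTRNR2L3 and MTRNR2L10, and the other pairs shared 0. MTRNR2L10 shared 13 windows with the 16S rRNA, MTRNR2L1 shared 11 and MTRNR2L6 shared 6, while MTRNR2L3 shared 0. MTRNR2L6 stood apart by having 205 of its 1398 windows (14.7%) at other nuclear sites outside the 4 genes, where MTRNR2L1 had 30 of 1506. Any site in the 6 unmatched members would count among these, so sharing over the whole family was not measured.

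A read from the 16S rRNA can also reach a gene with a few mismatches, and allowing them changed the order. Of 1460 windows of the 16S rRNA, 252 lay within 2 mismatches of MTRNR2L1, 104 of MTRNR2L10, 99 of MTRNR2L6 and 47 of MTRNR2L3. At up to 4 mismatches the numbers were 665, 183, 280 and 157, so that MTRNR2L6 passed MTRNR2L10. MTRNR2L1 was the closest of the 4 genes for 1104 of the 1460 windows (75.6%).

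**Figure D1:**
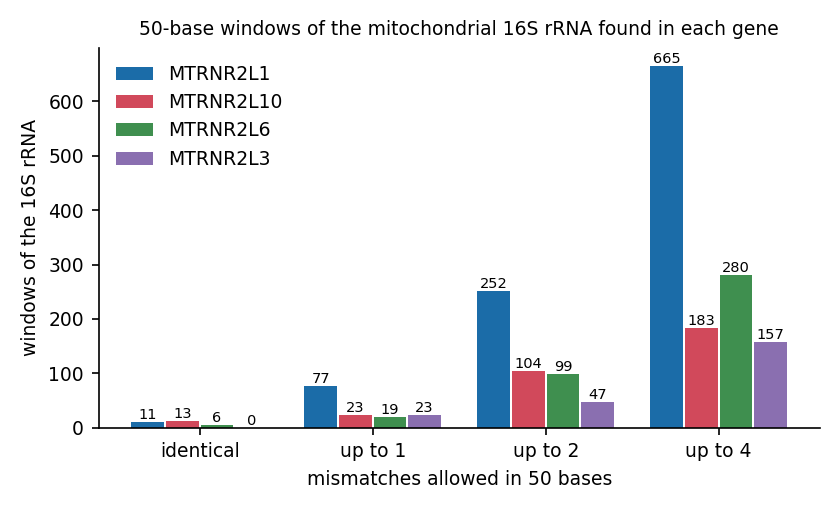
Number of 50-base windows of the mitochondrial 16S rRNA, of 1460, that occur in each MTRNR2L gene, by the mismatches allowed (bars, with the number above each). MTRNR2L10 leads among identical windows with 13, and MTRNR2L1 leads once mismatches are allowed.

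The distance from the 16S rRNA was uneven along its length. In classes of 100 window starts, MTRNR2L1 had a mean of 2.03 to 15.0 mismatches per window, with its lowest values at starts 901 to 1000 and 1301 to 1400. MTRNR2L10 begins farther inside the 16S rRNA, and its mean was between 25.4 and 27.0 over the first 4 classes. Its lowest value was 4.86, at starts 801 to 900.

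**Figure D2:**
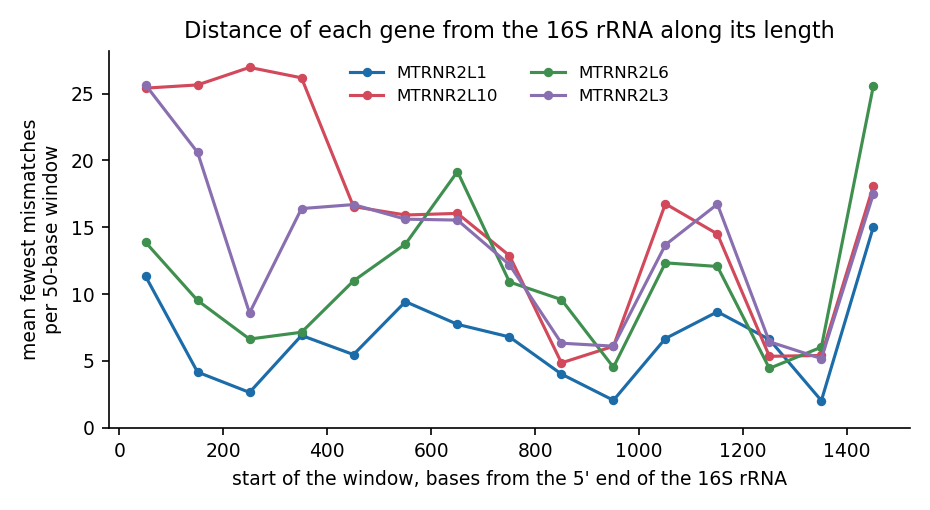
Mean of the fewest mismatches between each 50-base window of the 16S rRNA and each gene (vertical axis), by the start of the window in bases from the 5′ end of the rRNA (horizontal axis, classes of 100 starts). The line of MTRNR2L1 is lowest in most classes, and the lines of all 4 genes dip together near starts 801 to 1000 and 1201 to 1400.

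The first question on expression was how strongly each gene was read in the cells. Levels were taken as TPM, a transcript level per length that sums to an equal total in every library. The 4 genes covered a wide range, and 3 of them reached a TPM of 1 or more in each library. Among all listed genes 26.3% passed, and among protein-coding genes 63.8%. Together the 4 genes held 0.0331% of TPM in replicate 1 and 0.0390% in replicate 2. MTRNR2L1 alone made up 85.6% and 85.3% of this.

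MTRNR2L1 was the highest of the 4 genes. Its TPM was 283 in replicate 1 and 333 in replicate 2 (308 ± 34.9, SD, n = 2), from expected counts of 7786 and 10405. It ranked 380 by mean TPM among all listed genes. The quantifier also gave a 95% credibility interval around its posterior mean TPM, 268 to 281 in replicate 1 and 317 to 330 in replicate 2, and these do not overlap. The posterior mean TPM was 274 and 323, and the TPM itself lay above the interval in both libraries.

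MTRNR2L10 came second, at a TPM of 46.2 in replicate 1 and 55.7 in replicate 2 (51.0 ± 6.72, SD, n = 2), from expected counts of 904 and 1240. Its credibility intervals, 41.8 to 47.9 and 51.0 to 57.3, did not overlap either. The ratio of MTRNR2L1 to MTRNR2L10 was almost the same in both libraries, 6.13 and 5.97.

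MTRNR2L6 lay just above the detection threshold, with a TPM of 1.46 in replicate 1 and 1.61 in replicate 2 (1.54 ± 0.11, SD, n = 2), from expected counts of 37.3 and 46.9. Its credibility intervals, 0.992 to 1.95 and 1.13 to 2.07, overlapped each other, and the lower one reached below a TPM of 1. MTRNR2L10 exceeded it 31.6-fold in replicate 1 and 34.6-fold in replicate 2.

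The level of MTRNR2L3 was below what this depth could resolve. It had expected counts of 1.40 and 1.43, and a TPM of 0.06 in replicate 1 and 0.05 in replicate 2, with upper credibility bounds of 0.257 and 0.236. These counts are under the 3 counts that a count of 0 allows, which is 0.133 in replicate 1 and 0.112 in replicate 2 when scaled as CPM to the sum of the library. This floor takes in counting error alone.

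The order MTRNR2L1, MTRNR2L10, MTRNR2L6, MTRNR2L3 was the same in both libraries. Each gene was separated from the next in both its libraries and its credibility intervals, by ratios of mean TPM of 6.04 and 33.2 for the first pairs, while no fold is given against MTRNR2L3. Of the cut-offs used for 16S windows, only 2 mismatches gave that same order, with 104 for MTRNR2L10 and 99 for MTRNR2L6. Among identical windows MTRNR2L10 led MTRNR2L1, with 13 against 11. At up to 1 mismatch MTRNR2L3 and MTRNR2L10 had 23 each and MTRNR2L6 had 19. By identity over the transcript, and by windows within 4 mismatches, MTRNR2L6 came before MTRNR2L10. The part that reads of the 16S rRNA had in these levels was not tested. The annotation places 37 genes on the mitochondrial chromosome, of which the tables list 0, so the 16S rRNA has no value beside the members.

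**Figure D3:**
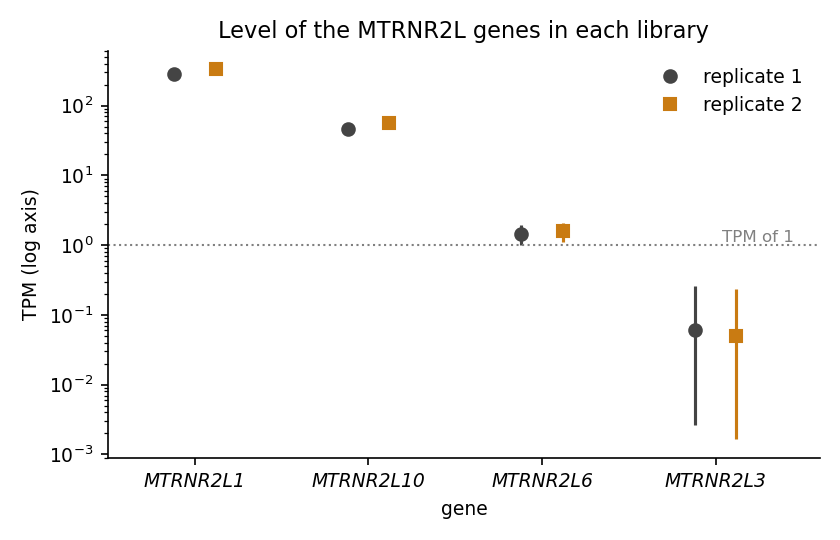
TPM of each matched MTRNR2L gene (log axis) in replicate 1 (circles) and replicate 2 (squares), with a dotted line at a TPM of 1. Vertical lines are the 95% credibility intervals around the posterior mean TPM of each library, and for MTRNR2L1 both TPM values lie above them. MTRNR2L1, at 283 and 333, and MTRNR2L10, at 46.2 and 55.7, sit far above MTRNR2L6, and MTRNR2L3 lies below the line with wide intervals.

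The surroundings of the genes were examined, since mitochondrial DNA is often inserted in longer pieces. MTRNR2L1, MTRNR2L3 and MTRNR2L10 each had a copy of the mitochondrial ND1 gene as a neighbour, in the order these genes have in mitochondria. MTND1P15 starts 73 bases beyond MTRNR2L1 and had a TPM of 0.08 in replicate 1 and 0 in replicate 2. MTND1P9 lies 71 bases beyond MTRNR2L3, at a TPM of 0.43 and 0.54. MTND1P30 lies 114 bases beyond MTRNR2L10 and is listed at 0 in both libraries. On the other side of MTRNR2L1 the nearest gene was MTCYBP13, an unprocessed pseudogene at a distance of 2402 bases, with a TPM of 0.1 and 0.09. These copies were listed at levels below those of MTRNR2L1 and MTRNR2L10. How well reads can be assigned to the copies was not measured, and the cause of the difference was not tested.

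MTRNR2L3 lies within RAE1, an mRNA export and mitotic gene on the opposite strand, which had a TPM of 21.0 in replicate 1 and 18.5 in replicate 2. The end of MTRNR2L1 overlaps ENSG00000243655, a lncRNA on the opposite strand, at a TPM of 2.73 and 1.27. The sources used here do not say whether counting used the strand, so reads of these overlapping genes may not be told apart. MTRNR2L6 lies between segments of the T cell receptor beta locus, of which TRBV24-1, at a distance of 9394 bases, is listed at 0 in both libraries.

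The sharing of reads among the listed genes was read from the posterior SD, which is what the quantifier reports as uncertainty when a read fits more than 1 gene. For MTRNR2L1 it was 17.0 reads, or 0.218% of the count, in replicate 1 and 19.6 reads, or 0.188%, in replicate 2. For MTRNR2L10 it was 0.947% and 0.816%, and for MTRNR2L6 5.34% and 4.72%. In all 3 genes it was smaller than the counting error of a Poisson count, which was 1.13%, 3.33% and 16.4% in replicate 1. It was still larger than in most genes of a like count (within 1.2-fold). Of these, 88.5% in replicate 1 and 86.1% in replicate 2 had a smaller share than MTRNR2L1. For MTRNR2L10 the values were 90% and 90.4%, and for MTRNR2L6 they were lower, at 66.8% and 68.7%. Since the tables list 0 mitochondrial genes, the posterior SD does not show whether reads of the 16S rRNA are among those assigned to a member. For MTRNR2L3 it was 66.4% and 72.0% of the count, so its level is uncertain. Genes of a like count had medians close to this, at 61.0% in replicate 1 and 63.4% in replicate 2.

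The next question was whether the members differed between the replicates. An exact two-sided binomial test on rounded expected counts, with shares from edgeR TMM factors, compared these libraries and not conditions. Of the 4 members 3 had a summed count of at least 10 and were tested, and 2 passed the threshold of 0.05 after Benjamini-Hochberg adjustment over 19714 genes, of which 42.2% passed. Both were higher in replicate 2, the direction in which 22.1% of the genes tested were called. MTRNR2L1 was higher in replicate 2 by a log2 ratio of 0.14 (exact binomial test, adjusted p = 1.85e-09). MTRNR2L10 was higher by a log2 ratio of 0.17 (exact binomial test, adjusted p = 0.0160). MTRNR2L6 had a log2 ratio of 0.06 and did not pass (exact binomial test, adjusted p = 0.970).

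These ratios were small beside the spread of all genes. The median log2 ratio was 0.14 over the 3 members and 0.02 over all genes tested, whose 5th and 95th percentiles were -0.52 and 1.21. When edgeR's exact test was run with a biological coefficient of variation set at 0.1, so that spread beyond counting noise was allowed for, it called 0 of the 3 members and 7.69% of all genes tested, and 0 members had an unadjusted p under 0.05.

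GC content moved with the ratio. Across genes the ratio fell with GC content, from a median log2 ratio of 0.67 in the lowest of 10 classes to -0.25 in the highest. The members are poor in GC, at 41.1% in MTRNR2L1 and 39.0% in both MTRNR2L6 and MTRNR2L10. Genes within 1 percentage point of MTRNR2L1 had a median log2 ratio of 0.35, and 77.7% of them had a higher ratio than MTRNR2L1. For MTRNR2L10 that median was 0.56, with 88.7% of such genes higher, and for MTRNR2L6 it was 0.56, with 94.2% higher. With the GC trend removed, MTRNR2L1 and MTRNR2L10 reversed to log2 ratios of -0.22 and -0.38 (exact binomial test, adjusted p = 8.38e-22 and 2.49e-08), where 26.7% of 19048 genes passed and 13.3% did so with a higher level in replicate 1. The direction of both genes thus depended on whether the GC trend was kept.

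**Figure D4:**
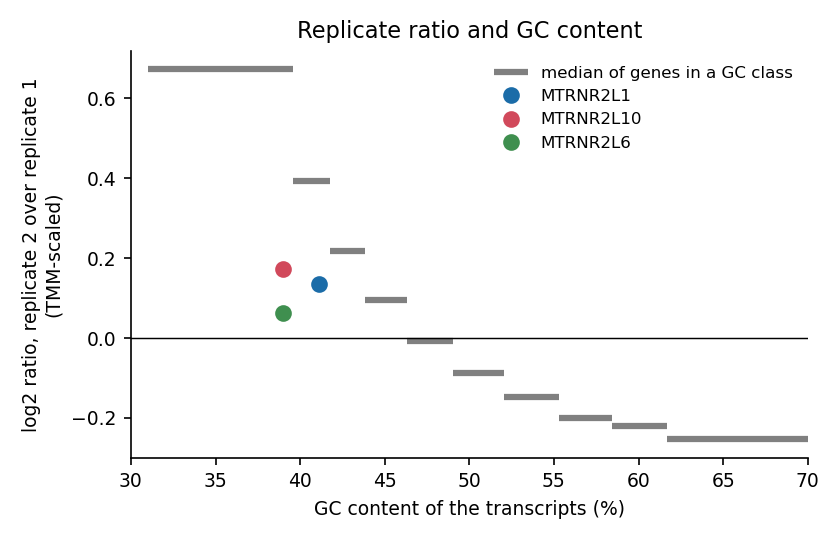
TMM-scaled log2 ratio of replicate 2 over replicate 1 (vertical axis) against GC content of the transcripts in percent (horizontal axis). Grey bars are medians of 10 GC classes of equal size, the last of which runs on beyond the axis, and coloured points are the 3 tested members, all of which lie above 0 and below the median of their own class.

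By the rule for like genes, those nearest to MTRNR2L1 in log2(TPM + 1) over both libraries were ERH, HMGB3 and SRSF5. ERH, a small protein of RNA metabolism, had a TPM of 286 and 326. HMGB3, a chromatin protein, was at 276 and 323, and SRSF5, a splicing factor, at 271 and 335. With 2 libraries such likeness says only that the levels were close.

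Genes of the humanin pathway were read as context for the peptide that the members could encode. Of 11 receptors and binding partners, all were listed and 8 were detected, with a TPM of 1 or more in each library. The formyl peptide receptor FPR2 is listed at 0 in both libraries, and FPR3 had 0 and 4 counts. The parts of the other receptor were present: IL6ST, the signalling subunit, had a TPM of 12.03 in replicate 1 and 31.13 in replicate 2, CNTFR 11.0 and 10.4, and IL27RA 4.76 and 4.45. Among binding partners, BAX was the highest at 74.02 and 65.04, followed by TRIM11, a ubiquitin ligase, at 53.9 and 49.2, whereas IGFBP3 was at 0.21 and 0.16. Of the 9 genes tested between the libraries 3 passed, beside 42.2% of all genes tested, with IL6ST higher in replicate 2 and BAX and TRIM11 higher in replicate 1. The log2 ratio of IL6ST was 1.46, or 0.61 with the GC trend removed. For BAX it was -0.35, or -0.12 with the trend removed, and for TRIM11 -0.23, or -0.01.

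Genes that make, modify, polyadenylate or degrade the mitochondrial 16S rRNA were read in the same way. Of 13 genes 12 were listed, and all 12 were detected. The identifier of MRM1 in the annotation used is not among the listed ones, so MRM1 has no value here. LRPPRC, which stabilises mitochondrial RNAs, was the highest at 101 in replicate 1 and 133 in replicate 2. SUPV3L1, a helicase of RNA decay, was at 48.0 and 48.7, and MTPAP, the mitochondrial poly(A) polymerase, at 11.0 and 11.8. TFB2M, a transcription factor of mitochondria, was the lowest by mean, at 5.84 and 6.99. Of the 12 genes 7 passed the binomial test, beside 42.2% of all genes tested, and 4 of the 7 were higher in replicate 2, beside 22.1%. These 4 were TFAM, TEFM, LRPPRC and PNPT1, and the other 3 were POLRMT, MRM2 and MRM3. With the GC trend removed the log2 ratio of LRPPRC turned from 0.34 to -0.14 and that of PNPT1 from 0.46 to -0.04. That of TFAM moved from 0.70 to 0.01, that of TEFM from 1.06 to 0.55 and that of POLRMT from -0.32 to -0.07, while MRM2 stood at -0.09 and MRM3 at -0.08.

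The libraries held 22529828 expected counts in replicate 1 and 26890199 in replicate 2. Of 9 kidney epithelial markers 5 were detected, with PODXL, KRT18, KRT8, PAX2 and CDH1 present and UMOD, AQP2 and CDH16 listed at 0. Of 7 neuronal markers 6 were listed and all 6 were detected, while the identifier of NEFL in the annotation used is not among the listed ones. Of the fibroblast markers 1 of 3 was detected, COL1A1, and of the blood markers 0 of 3. By the same rule 63.8% of protein-coding genes were detected.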

How the data were processed

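Members, lists and tests were chosen with earlier results of these data known. Per the labels, the authors used Trimmomatic 0.36, STAR 2.6.1c and RSEM 1.3.1 with GRCh37. Their methods name featureCounts, but the deposited tables have RSEM columns. Deposited expected counts share multi-mapped reads among genes. The authors scaled TPM and FPKM to effective length and library size before they deposited them. Posterior SDs, bounds and lengths were read as deposited by the authors, and a pooled table held their values over both libraries.

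Symbols, positions and sequences came from a GENCODE annotation and genome of GRCh37, the build the methods name, in another release. Of 57736 identifiers, 96.1% had a symbol there. Windows of 50 bases were searched on both strands of the genome, and local alignments (Biopython 1.88) scored match 1, mismatch -1, gap opening -2 and extension -0.5. Windows holding an N were left out.

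Expected counts were rounded and tested with an exact binomial test (scipy 1.17.1), TMM factors coming from edgeR 4.0.16, for genes whose counts summed to at least 10. Ratios used a pseudocount of 0.5. The GC trend was the median ratio in 50 classes. The test was tested on simulated Poisson counts, which hold counting noise and set changes but no further spread between replicates. Values are given per library, with the mean and SD of 2 libraries. Named genes were all matched members, overlapping and nearest genes, the 3 genes nearest in level, and from each list the highest 2, the lowest and those called. Of the nearest genes, RBM38-AS1, TRBV25-1 and PAGE5 are not described above. Receptors and other named list genes outside this rule (FPR3, CNTFR, IL27RA, MTPAP, IGFBP3) and the cell type markers were named after their values were seen. Alternatives covered thresholds, units, scaling with DESeq2 1.42.0, count minimums, pseudocounts, the edgeR exact test and window lengths.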

Additional observations from a re-analysis of the deposited data

How the results depend on the processing

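No paired analysis was possible because there is only 1 group here. With 2 libraries of 1 condition, the precision of MTRNR2L6 and MTRNR2L3 is limited by their counts. The order of the 4 genes was the same by CPM, FPKM, posterior mean TPM and in each library alone. The number of detected genes was 3 without replicate 1 or replicate 2, and between 2 (TPM of at least 5, or a lower bound of at least 1, both of which lose MTRNR2L6) and 3 under the other thresholds. The share held by the 4 genes was 0.0361% of TPM, 0.0331% to 0.0390% when either replicate was left out, and 0.0411% of expected counts. Removal of the GC trend turned the median log2 ratio of the tested members to -0.38, with MTRNR2L1 at -0.22 and MTRNR2L10 at -0.38; the cause was not tested. The edgeR exact test called 0 members in place of 2, since it allows for more spread. The scalings, count minimums, posterior counts and pseudocounts tried left MTRNR2L1 and MTRNR2L10 called and higher in replicate 2. Windows shared between members made up 0.414% of all their windows at 50 bases, 6.60% at 30 bases and 0% at 75 bases, as longer windows are matched less often. Counting windows of the 16S rRNA with mismatches was chosen after seeing the data.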

Other observations

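Identical windows of the 16S rRNA were found at 13 nuclear loci of GRCh37 when matches within 2000 bases were joined, and 10 of these lie outside the 4 matched genes. The locus with most of them, chr3:96336126-96336983, holds 153 windows and overlaps no gene of the annotation used. The next, chr11:10529434-10530517, holds 112 and overlaps none either. The 6 unmatched members are missing from that annotation, and whether any of them lies at these loci was not checked. The matched genes hold far fewer, with 13 in MTRNR2L10, 11 in MTRNR2L1 and 6 in MTRNR2L6. Each of these members carries its identical windows in 1 unbroken stretch, at chrX:55208079-55208140, chr17:22022750-22022809 and chr7:142375344-142375398. In all, 237 of the 1460 windows of the 16S rRNA occurred somewhere in the nuclear genome.

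The pooled table of the authors gave MTRNR2L1 a TPM of 310, MTRNR2L10 51.3, MTRNR2L6 1.54 and MTRNR2L3 0.05. Its expected counts for these genes differed from the sum of both libraries by less than 1 read.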
